A study of Schizosaccharomyces pombe with 6 samples.

Results

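Rad52 binds single-stranded DNA and anneals complementary strands, and it marks DNA undergoing homologous recombination. Slowed or broken replication forks are a source of such DNA in S phase. Rad3 is the fission yeast kinase of the ATR family that signals from single-stranded DNA and restrains recombination at stalled forks. Sites where forks meet obstacles, such as genes read by RNA polymerase III, centromeres and heavily transcribed genes, are among the places where recombination proteins have been studied.

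The bins described here are 155 stretches of 1 kb of the Schizosaccharomyces pombe genome, out of 9923 that were eligible (1.56%), in which the Rad52 signal was at or above 0.5 both in cells without rad3 and in cells with it. Signal means log2 of immunoprecipitated (IP) DNA over input DNA, with the median of each array at 0, so that 0.5 is a ratio 0.5 log2 units above the genome's middle. A bin had 2 or more probes. The bins were chosen by the mean of the 3 Δrad3 arrays and the mean of WT replicates 1 and 3. The mitochondrial genome, the region of rad3 itself and the right ends of chromosomes II and III were not eligible. Nor was chromosome I beyond position 3700000, a part that includes its centromere. Because measured values chose the bins, their levels on those 5 arrays are a description. The array labelled WT replicate 2 took no part in the choice. The number of bins rests on single arrays, at 102 without WT replicate 3 and 266 without WT replicate 1. It also rests on the processing, at 41 with normexp, of which 40 are among the 155. Normexp here means another background correction, made on the raw median signals with an offset of 50.

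The study mapped Rad52 with an anti-Rad52 antibody on 2-colour tiling arrays, with 3 arrays of a cdc25-22 strain with Δrad3 and 3 of a cdc25-22 strain labelled WT. Both groups carried cdc25-22, which makes the phosphatase Cdc25 fail at high temperature and so blocks entry into mitosis. All cultures were held for 4 h at 36.5 °C and then moved to 25 °C. Hydroxyurea, an inhibitor of ribonucleotide reductase, was added at 6 mM, and cells were collected at 60 min, in early S phase. The labels of WT replicate 3 and of the Δrad3 samples put hydroxyurea at 10 min after release and carry an RNA protocol, whereas those of WT replicates 1 and 2 carry a chromatin protocol. No array held a control IP, so unspecific recovery of DNA is part of every level.

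Arrays of the same replicate number shared a slide. The Δrad3 arrays had median input signals 9.58, 12.9 and 6.53 times the local background, and the arrays labelled WT 20.01, 14.7 and 5.04 times. Of 25 probes in the rad3 coding sequence, 9 were not well above background in the input of each Δrad3 array, against 24 on the array labelled WT replicate 2. WT replicates 1 and 3 had 0 such probes. The library labelled WT replicate 2 thus lacked rad3 DNA and went against its label. WT means are of replicates 1 and 3 unless all 3 arrays labelled WT are named, and this array's value is given second of the 3 wherever single arrays are listed. Whether replicates were separate cultures is not stated, so any p-value here covers the spread of these arrays alone, and their number limits the precision.

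The sequences shown are those of genes in the bins with high signal in both strains, read from the RefSeq annotation of ASM294v3 on the strand of the gene. The arginine tRNA gene SPATRNAARG.01 (chrI:3443055-3443144, forward strand) lies in the member bin whose lower strain mean was highest. Most tRNA genes have an internal promoter element, the B box, and capitals mark the letters GTTCNANNC of that element where a transfer RNA gene held them. The 5S rRNA genes SPRRNA.40 (chrII:2442700-2442852, reverse strand) and SPRRNA.36 (chrII:3938578-3938707, forward strand) are dispersed copies that share a run of 108 bases. snoU14 (chrII:1308634-1308745, forward strand) is a small nucleolar RNA that guides rRNA maturation. The tRNA genes SPATRNAILE.02 (chrI:2578426-2578524) and SPBTRNAASN.02 (chrII:2032160-2032233) are on the forward strand.
SPATRNAARG.01: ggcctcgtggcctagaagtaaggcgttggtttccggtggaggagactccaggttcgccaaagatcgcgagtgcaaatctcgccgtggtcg
SPATRNAILE.02: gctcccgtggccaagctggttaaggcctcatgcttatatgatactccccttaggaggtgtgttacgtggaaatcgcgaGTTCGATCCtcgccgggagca
SPBTRNAASN.02: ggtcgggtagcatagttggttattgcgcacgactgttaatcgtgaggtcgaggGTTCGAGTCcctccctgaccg
SPRRNA.40: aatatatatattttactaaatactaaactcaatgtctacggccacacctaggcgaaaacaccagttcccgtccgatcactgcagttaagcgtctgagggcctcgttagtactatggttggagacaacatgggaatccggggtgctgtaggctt
SPRRNA.36: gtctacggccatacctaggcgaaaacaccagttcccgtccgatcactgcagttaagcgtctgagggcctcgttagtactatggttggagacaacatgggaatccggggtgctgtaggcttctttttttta
snoU14: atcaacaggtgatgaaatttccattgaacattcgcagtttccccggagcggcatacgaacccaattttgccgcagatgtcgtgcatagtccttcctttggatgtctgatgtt

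The 300 bases before SPATRNAARG.01 (chrI:3442755-3443054, forward strand) are 74% A+T and hold no annotated gene; they are shown because the signal covered both the gene and its flank, and capitals mark their longest run of A.
SPATRNAARG.01 upstream: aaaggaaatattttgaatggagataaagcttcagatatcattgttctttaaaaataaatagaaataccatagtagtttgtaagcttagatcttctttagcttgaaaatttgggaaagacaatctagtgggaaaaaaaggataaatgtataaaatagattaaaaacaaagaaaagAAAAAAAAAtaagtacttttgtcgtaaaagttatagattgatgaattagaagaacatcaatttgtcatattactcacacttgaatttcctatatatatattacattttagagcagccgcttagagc
The letters GTTCNANNC, searched on the gene's strand, were found in 30 of 33 tRNA genes in member bins (90.9%), against 107 of all 113 tRNA genes in eligible bins (94.7%). Over whole bins and both strands they were found in 58 of 155 members (37.4%), against 29.0% of all eligible bins. A run of 10 A, on either strand, lay in 51 members (32.9%), against 13.9% of all eligible bins, and among bins with an intergenic midpoint in 37.8% of members and 25.9% of all such bins.

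**Figure D1:**
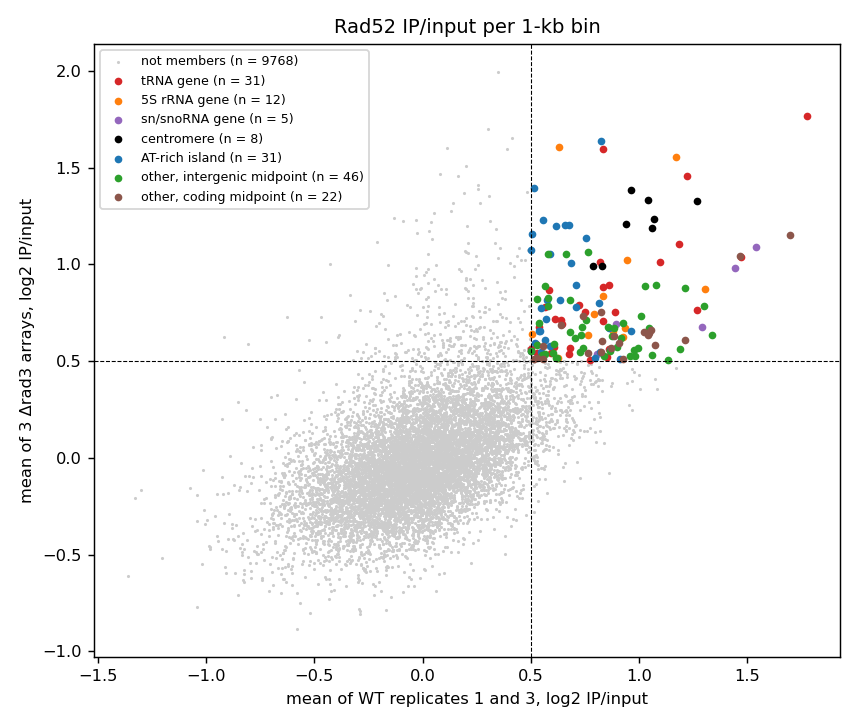
Mean log2 IP/input of 1-kb bins, with the 3 Δrad3 arrays on the vertical axis and WT replicates 1 and 3 on the horizontal axis. Each point is a bin, dashed lines mark 0.5, and coloured points are the 155 members by what they hold. tRNA genes, 5S rRNA genes and centromere bins reach the upper right, and most members lie near the lines.

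The member bins were short and scattered. They formed 125 separate regions, of which 106 were a single bin and 16 were pairs of bins. Chromosome I held 57 of them (1.57% of its eligible bins), chromosome II 72 (1.71%) and chromosome III 26 (1.25%). Only 3 regions were longer. The longest, of 7 bins (chrII:1621001-1628000), lay between rpb1 and yox1, the genes that flank the centromere of chromosome II. The nearest eligible bins on its sides were chrII:1603001-1604000 and chrII:1643001-1644000, so its ends are where eligible bins ran out. A run of 6 bins (chrI:3442001-3448000) covered SPATRNAARG.01 and rpt5, which encodes a proteasome ATPase, and a run of 4 (chrIII:1689001-1693000) covered the tRNA genes sup9 and imt07 and the 5S rRNA gene SPRRNA.05.

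The 155 bins were a minority of either strain's own list. The Δrad3 mean reached 0.5 in 491 bins (4.95% of all eligible bins), and the WT mean in 477 (4.81%). Members made up 31.6% of the Δrad3 list and 32.5% of the WT list, which left 336 bins with the Δrad3 mean alone at or above 0.5 and 322 with the WT mean alone.

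The levels of the members were moderate and uneven between arrays. Member medians were 0.69, 0.64 and 0.87 on Δrad3 replicates 1, 2 and 3, against 0.65, 0.77 and 0.95 on those labelled WT replicates 1, 2 and 3. On single arrays, 120, 108 and 125 members were at or above 0.5 on the Δrad3 arrays, where 5.19%, 4.53% and 10.5% of all eligible bins were. The same count was 94, 110 and 147 on the arrays labelled WT, where 5.79%, 15.3% and 11.4% of all eligible bins were. Thus WT replicate 1 had the fewest members at that level and WT replicate 3 the most.

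On all 6 arrays, 33 members were at or above 0.5, and on all 5 arrays that the rule used 43 were. Another 47 reached it on 5 of the 6 arrays, 54 on 4, and 21 on fewer. In the IP channel alone, each array centred on its median, the members had a median of 0.83, 0.80 and 0.69 on the Δrad3 arrays, against 0.84, 0.94 and 0.83 on the arrays labelled WT. Their input median came to 0.11, 0.13 and -0.17 on the Δrad3 arrays, against 0.25, 0.30 and -0.18 on the arrays labelled WT. The IP was thus above the array's middle on all 6 arrays, while the input of slide 3 was below its middle and the others above.

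No gap in the values separated members from the next bins. Just inside, the bin of ltc2 had means of 1.08 in Δrad3 and 0.50 in WT, and the bins of SPATRNAGLU.01 and of ccr1 had 0.553 in Δrad3 and 0.502 in WT. Just outside, the bin of toa2 and knh3 had 0.499 in Δrad3 and 0.653 in WT, and that of pgm1 had 0.498 in Δrad3 and 0.622 in WT. In all, 72 members had a lower strain mean under 0.6, and in 13 it was at least 1.

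The members were mostly above the genome's middle on the array that did not choose them as well. On the array labelled WT replicate 2, 110 of 155 members (71%, Wilson 95% interval 63.4 to 77.5, for the counting of bins only) were at or above 0.5. Of all eligible bins, 15.3% were. At 0.75 the count was 79 members against 5.87% of all eligible bins, and at 1 it was 51 members against 1.68%. The median of the other eligible bins was -0.07 there, and 10 members lay below 0. That library lacked rad3 DNA, so it is a further array of Rad52 signal and not a settled WT sample.

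**Figure D2:**
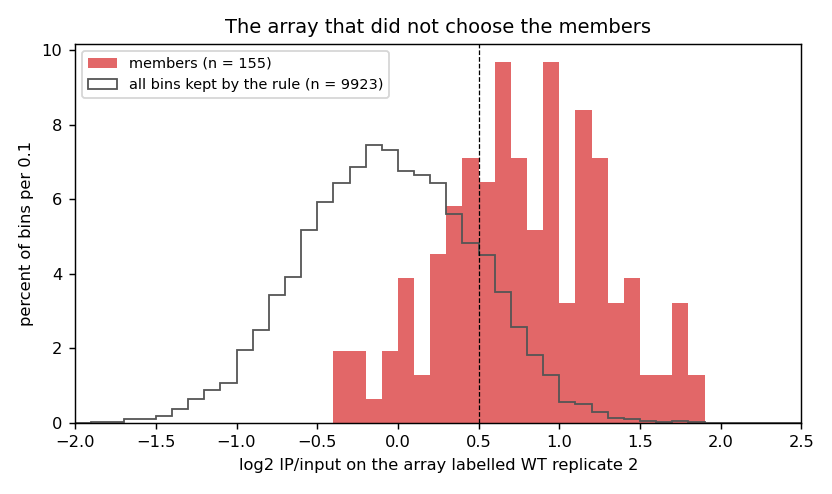
Distribution of log2 IP/input on the array labelled WT replicate 2, as a percent of bins per 0.1, for the 155 members (filled) and all 9923 eligible bins (line). The dashed line marks 0.5, with 71% of members and 15.3% of all bins at or above it.

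The share of members at that level on this array varied with the kind of sequence. All 5 bins with a small nuclear or nucleolar RNA gene were at or above 0.5 there, as were 26 of 31 bins with a tRNA gene and 9 of 15 with a 5S rRNA gene. Bins with the midpoint of an AT-rich island reached it in 14 of 26 cases, and centromere bins in 6 of 14. The 5 lowest members on that array were 3 centromere bins without a gene, at -0.39, -0.34 and -0.27, and the bins of SPRRNA.28 with SPBTRNAHIS.01, at -0.30, and of SPRRNA.34 with dbp7, at -0.23. These differences between kinds were not tested.

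The bins beside a region's top bin were on average lower on every array. On the 5 arrays of the rule this was fixed by the choice, since the top bin was the highest of its region. Moreover, 106 regions were single bins whose neighbours did not pass or were not eligible. The array labelled WT replicate 2 had no part in it, and there the averages were 0.80 in the top bin, 0.37 in the bin to its left and 0.40 in the bin to its right. Averaged over the 125 regions, the top bin had 0.75, 0.67 and 0.86 on the Δrad3 arrays and 0.69 and 0.95 on WT replicates 1 and 3. The bin 1 kb to the left had 0.30, 0.30 and 0.45 on the Δrad3 arrays and 0.20 and 0.32 on WT replicates 1 and 3. At 10 kb to the right the averages lay between -0.01 and 0.07. Chromatin fragments of 400 to 500 bp, per the labels of WT replicates 1 and 2, limit how narrow such a peak can be.

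**Figure D3:**
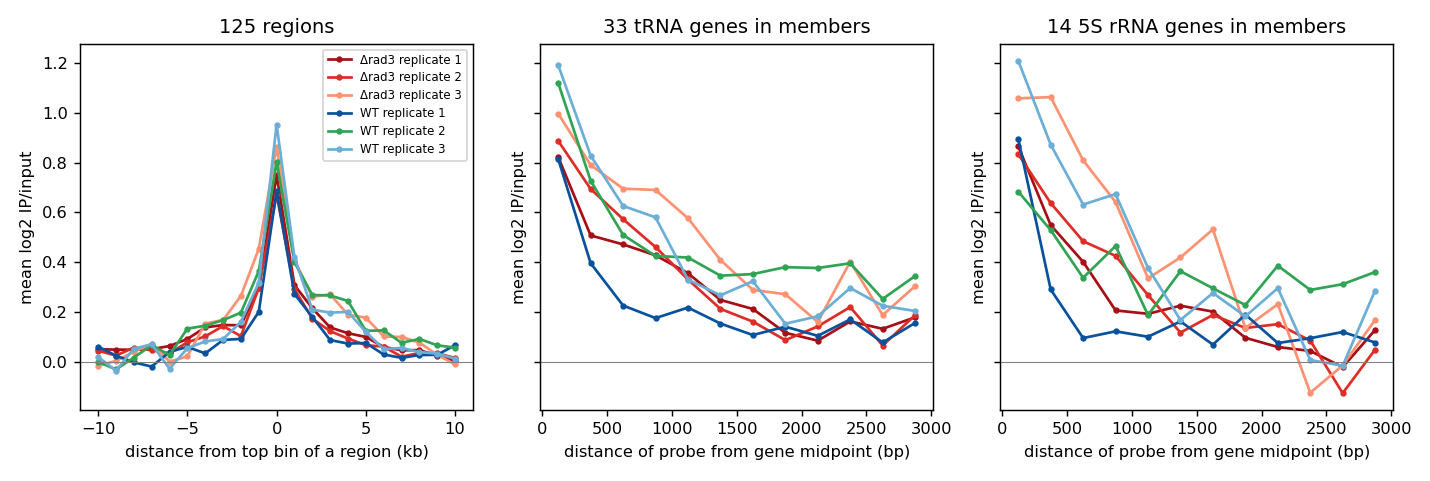
Mean log2 IP/input on each array against distance in kb from the top bin of the 125 regions (left), and against distance in bp of single probes from the midpoint of 33 tRNA genes (centre) and 14 5S rRNA genes (right) in members. Δrad3 arrays are in reds and arrays labelled WT in blues and green. All 6 arrays have their highest value at or next to the centre, which the choice of the bins favours on the 5 arrays of the rule.

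Genes read by RNA polymerase III made up the largest single class with a common function. tRNA genes lay in 31 members (20%), against 1.18% of all eligible bins, and 33 of 113 tRNA genes in eligible bins (29.2%) were covered. 5S rRNA genes lay in 15 members (9.68%, against 0.36% of all eligible bins), covering 14 of 31 genes, and 3 bins held both kinds. Of the bins with the Δrad3 mean alone at or above 0.5, 3.87% held a tRNA gene and 0.89% a 5S gene. With the WT mean alone, it was 4.35% and 1.24%.

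The tRNA member bins had medians of 0.65, 0.71 and 0.87 on the Δrad3 arrays and 0.50, 0.96 and 0.99 on the arrays labelled WT. The other 86 bins with a tRNA gene had median strain means of 0.24 in Δrad3 and 0.28 in WT, so many tRNA genes lay between the genome's middle and the threshold. Probes within 250 bp of the midpoint of the 33 tRNA genes averaged 0.82, 0.89 and 1.00 on the Δrad3 arrays and 0.81, 1.12 and 1.19 on the arrays labelled WT. Probes 1000 to 1250 bp away averaged 0.36, 0.33 and 0.58 on the Δrad3 arrays and 0.22, 0.42 and 0.33 on the arrays labelled WT. On all 6 arrays the values were highest in the probes nearest the genes.

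Isotypes were represented unevenly. Asparagine tRNA genes were in members for 5 of 8 genes in eligible bins, arginine for 4 of 8 and proline for 4 of 9. None of 8 leucine, 7 threonine and 4 alanine genes was in a member, and 1 of 11 serine genes was. These counts are small and were not tested.

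The bin of SPATRNAARG.01 and rpt5 (chrI:3443001-3444000) had 1.42, 1.91 and 1.97 on the Δrad3 arrays and 1.17, 1.34 and 2.38 on the arrays labelled WT. Its values were high on every array and the groups overlapped. The bin of the isoleucine tRNA gene SPATRNAILE.02 and cdc3, which encodes the actin-binding protein profilin, had 0.85, 1.10 and 1.37 on the Δrad3 arrays and 0.82, 1.70 and 1.56 on the arrays labelled WT. The bin of the serine tRNA gene sup9 and the initiator tRNA gene imt07 had 0.91, 0.88 and 1.33 on the Δrad3 arrays and 1.11, 1.88 and 1.84 on the arrays labelled WT. In both bins replicate 1 was the lowest of the arrays labelled WT.

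Some tRNA bins had levels that differed little between arrays. SPBTRNAASN.02, which shares its bin with the 5S gene SPRRNA.39 and qcr1, had 1.03, 1.02 and 0.98 on the Δrad3 arrays and 1.16, 1.55 and 1.03 on the arrays labelled WT. SPATRNAPRO.01, beside the rRNA methyltransferase gene bmt2, had 0.74, 1.04 and 0.87 on the Δrad3 arrays and 0.68, 1.13 and 0.99 on the arrays labelled WT. In contrast, the glutamate tRNA gene SPBTRNAGLU.08 had 1.32, 1.44 and 2.02 on the Δrad3 arrays and 0.69, 0.05 and 0.97 on the arrays labelled WT, with no overlap.

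The 5S rRNA member bins were highest on slide 3 in both groups. Their medians were 0.59, 0.69 and 0.98 on the Δrad3 arrays and 0.52, 0.70 and 1.09 on the arrays labelled WT. The bin of SPRRNA.40 and ucp3, a GTPase-activating protein gene, had 1.29, 1.44 and 1.92 on the Δrad3 arrays and 0.58, 0.70 and 1.76 on the arrays labelled WT. SPRRNA.36, with which SPRRNA.40 shares its long run of bases, had 1.18, 0.87 and 1.01 on the Δrad3 arrays and 0.81, 0.89 and 1.09 on the arrays labelled WT. None of the 550 probes in members had central 40 bases that occur more than once in the reference.

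Small nuclear and nucleolar RNA genes gave 5 members of 63 bins that hold one (3.23% of members, 0.63% of all eligible bins). Of the bins with the WT mean alone at or above 0.5, 12 held one (3.73%), a share no lower than that of members. With the Δrad3 mean alone there were 3 (0.89%). snoU14 had 1.15, 1.14 and 0.97 on the Δrad3 arrays and 1.69, 1.70 and 1.40 on the arrays labelled WT. A cluster of snoZ7, snoZ5, snoZ4 and snoZ3 beside psf3, a subunit gene of the GINS replication complex, had 1.23, 0.81 and 0.91 on the Δrad3 arrays and 1.52, 1.33 and 1.37 on the arrays labelled WT. In both bins every Δrad3 array was below every array labelled WT. The bin of snu4, the U4 small nuclear RNA of the spliceosome, with met17 had 0.79, 0.54 and 0.69 on the Δrad3 arrays and 1.36, 0.88 and 1.23 on the arrays labelled WT, again without overlap.

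Of the 3 regions longer than 2 bins, the one at the centromere of chromosome II held no annotated coding gene. The stretches between rpb1 and yox1 (51524 bp) and between meu27 and ppc1 (78895 bp) had only 23 eligible bins, so most of their length was not measured here. Of these bins, 14 were members, 9 at the centromere of chromosome II and 5 at that of chromosome III. Chromosome I's centromere lies in the part left out. The 7 bins at chrII:1621001-1628000 averaged 1.27, 1.12 and 1.33 on the Δrad3 arrays and 1.02, 0.09 and 1.02 on the arrays labelled WT, so that the array labelled WT replicate 2 stood apart.

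Among the centromere members, bins with and without a tRNA gene had different values on that array. The 8 member bins without a tRNA gene ranged from -0.39 to 0.73 there with a median of 0.03, whereas the 6 with a tRNA gene ranged from 0.37 to 1.34 with a median of 1.18. SPCTRNAARG.10 had 0.69, 0.92 and 1.07 on the Δrad3 arrays and 0.45, 1.34 and 1.28 on the arrays labelled WT. SPCTRNAGLU.10, which borders the member bin between meu27 and ppc1, had 1.33, 1.44 and 1.60 on the Δrad3 arrays and 1.19, 0.37 and 1.25 on the arrays labelled WT. The split was noticed among members, was not tested and was smaller among the other centromere bins, where the 6 without a tRNA gene ranged from -0.16 to 0.99 on that array with a median of 0.49 and the 3 with one from 0.53 to 0.85 with a median of 0.58.

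AT-rich islands were a further class. An island was a stretch with at least 72% A+T in windows of 1000 bp and at most 50% coding sequence, a feature of fission yeast replication origins. Its midpoint lay in 26 members (16.8%, against 3.06% of all eligible bins), and an island touched 57 members (36.8% against 7.28%). Among the 41 members found with normexp, only 2 held a midpoint (4.88%), near the share of all eligible bins. Of the bins with the Δrad3 mean alone at or above 0.5, 33.9% held a midpoint, and of those with the WT mean alone 1.55%. The share of members thus lay between the shares of those lists. Median A+T was 68.2% in members and 64.0% in all eligible bins, and among bins with an intergenic midpoint 69.2% in members and 66.6% in all.

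The island members had medians of 0.69, 0.81 and 1.21 on the Δrad3 arrays and 0.36, 0.55 and 1.01 on the arrays labelled WT. Each group was highest on slide 3 and lowest on slide 1, and only 9 of the 26 reached 0.5 on WT replicate 1. The bin of spo20, a phospholipid transfer protein gene, had 1.38, 1.37 and 1.43 on the Δrad3 arrays and 0.32, -0.20 and 0.71 on the arrays labelled WT. The bin of SPRRNA.54, whose island also holds a 5S gene, had 1.45, 1.48 and 1.90 on the Δrad3 arrays and 0.37, 0.27 and 0.89 on the arrays labelled WT. Neither bin's groups overlapped. The bin of esc1 and pso2, a DNA crosslink repair nuclease gene, had 0.48, 0.70 and 1.21 on the Δrad3 arrays and 0.60, 0.19 and 1.03 on the arrays labelled WT.

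**Figure D4:**
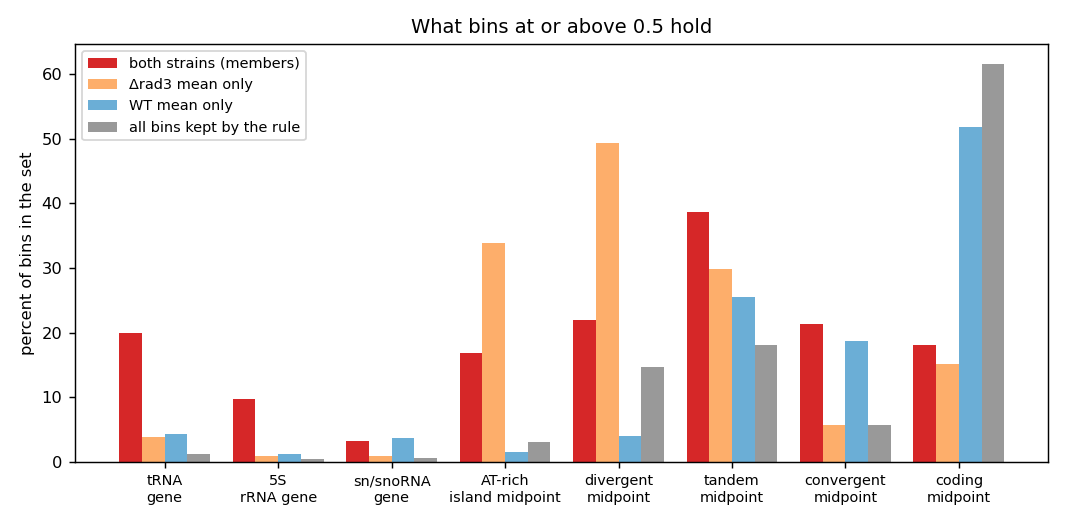
Percent of bins that hold each feature or have their midpoint in each class, for the 155 members, the 336 bins with the Δrad3 mean alone at or above 0.5, the 322 with the WT mean alone, and all 9923 eligible bins. The shares with tRNA and 5S genes are highest among members, those with islands and divergent midpoints among bins with the Δrad3 mean alone, and that with coding midpoints among all bins.

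Members lay mostly between coding sequences. The midpoint was intergenic in 127 of 155 (81.9%), against 38.4% of all eligible bins. By the direction of the flanking coding genes, 60 midpoints (38.7%) were between tandem genes, 34 (21.9%) between divergent genes and 33 (21.3%) between convergent genes, against 18.1%, 14.7% and 5.68% of all eligible bins. Of bins with the Δrad3 mean alone at or above 0.5, 49.4% had a divergent and 5.65% a convergent midpoint. With the WT mean alone these were 4.04% and 18.6%. Members between divergent genes had medians of 0.64, 0.70 and 1.18 on the Δrad3 arrays and 0.34, 0.60 and 0.98 on the arrays labelled WT, and those between convergent genes 0.79, 0.60 and 0.67 on the Δrad3 arrays and 0.88, 0.94 and 0.89 on the arrays labelled WT.

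Beyond RNA genes, islands and centromeres, 68 members remained. Among lists of coding genes, whose bins may also hold an RNA gene, thiamine genes gave 6 members of the 21 eligible bins of the list of 7 genes (3.87% of members, 0.21% of all eligible bins). The bin of thi2, which makes the thiazole part of thiamine, and sec9 had 1.30, 1.06 and 1.09 on the Δrad3 arrays and 1.68, 1.79 and 1.72 on the arrays labelled WT. It was high on all 6 arrays, with no overlap. nmt1, which makes the pyrimidine part, had 0.77, 0.50 and 0.27 on the Δrad3 arrays and 1.20, 0.91 and 0.66 on the arrays labelled WT. pho4, an acid phosphatase gene repressed by thiamine, had 0.99, 0.78 and 0.49 on the Δrad3 arrays and 1.04, 1.17 and 0.62 on the arrays labelled WT.

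The thiamine transporter gene thi9 had 2 member bins. The one with the tRNA gene SPATRNAMET.02 had 0.90, 0.68 and 0.71 on the Δrad3 arrays and 1.22, 1.59 and 1.32 on the arrays labelled WT. The other (chrI:1482001-1483000) had 0.50, 0.46 and 1.13 on the Δrad3 arrays and 0.13, 0.68 and 0.95 on the arrays labelled WT. The list also held bsu1, annotated as a vitamin B6 carrier gene. Its bin had 1.04, 0.65 and 0.26 on the Δrad3 arrays and 0.78, 1.24 and 0.58 on the arrays labelled WT. All 6 thiamine bins were at or above 0.5 on the array labelled WT replicate 2. The other 15 bins of the list had a median of 0.23 there.

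Other coding lists gave few members. Histone genes gave 2 of 7 bins, glycolysis and fermentation genes 3 of 33, heat shock genes 1 of 35, ribosomal protein genes 1 of 194 and targets of the MBF transcription factor 0 of 48, where 1.56% of all eligible bins were members. The bin of htb1, which encodes histone H2B, and sec5 had 0.96, 0.72 and 0.23 on the Δrad3 arrays and 1.46, 1.75 and 1.21 on the arrays labelled WT. The bin of hta1, which encodes histone H2A, had 0.91, 0.26 and 0.37 on the Δrad3 arrays and 1.19, 1.09 and 0.63 on the arrays labelled WT. Both were lower on Δrad3 replicates 2 and 3 than on any array labelled WT.

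Among glycolysis and fermentation genes, fba1, the aldolase gene, had 0.96, 0.43 and 0.29 on the Δrad3 arrays and 1.46, 1.13 and 0.92 on the arrays labelled WT. adh1, the alcohol dehydrogenase gene, had 0.68, 0.59 and 0.32 on the Δrad3 arrays and 1.23, 0.85 and 0.89 on the arrays labelled WT. The third was pdc101, a putative pyruvate decarboxylase gene, with 0.58, 0.37 and 0.71 on the Δrad3 arrays and 1.02, 0.69 and 0.94 on the arrays labelled WT. In all of these, the Δrad3 arrays of slides 2 and 3 lay below those labelled WT of the same slides.

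The single heat shock member was sks2, a ribosome-associated chaperone gene, with 0.63, 0.50 and 0.58 on the Δrad3 arrays and 0.92, 1.27 and 0.89 on the arrays labelled WT. The single ribosomal protein member was rps2202, with 0.97, 0.67 and 0.56 on the Δrad3 arrays and 1.01, 1.21 and 1.01 on the arrays labelled WT. In both bins every Δrad3 array was below every array labelled WT.

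The gene met26, which encodes homocysteine methyltransferase, had 2 bins among those named, one for its strongly negative difference and the other for its high value on WT replicate 2. The first (chrI:1479001-1480000) had 0.65, 0.57 and 0.61 on the Δrad3 arrays and 1.25, 1.35 and 1.17 on the arrays labelled WT. The second (chrI:1481001-1482000) had 0.77, 0.82 and 0.44 on the Δrad3 arrays and 1.11, 1.78 and 0.98 on the arrays labelled WT. The bin of rad52 itself (chrI:1100001-1101000), chosen after its values were seen, was a member with 1.03, 0.41 and 0.52 on the Δrad3 arrays and 1.13, 0.93 and 0.91 on the arrays labelled WT.

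Only 28 members had a coding midpoint (18.1%, against 61.6% of all eligible bins), and 4 lay wholly in coding sequence. Their medians were 0.65, 0.52 and 0.86 on the Δrad3 arrays and 0.88, 0.87 and 0.94 on the arrays labelled WT. Of the bins with the WT mean alone at or above 0.5, 51.9% had a coding midpoint, and of those with the Δrad3 mean alone 15.2%.

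Promoter windows, from 250 bases before to 50 after an annotated start, gave little further in common. Of 33 such windows centred in members, 18 (54.5%) held TATAAA, against 48.2% of 4135 windows. AACCCT, a box known from histone gene promoters, lay in 7 (21.2%), against 9.65% of all windows. ACGCGT, the MBF motif, lay in 1 (3.03%), against 3.41%, and CAGTCACA, the Homol D box of ribosomal protein genes, in 0, against 2.64% of all windows. All were searched on both strands.

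Over all members, the difference between the strains was smaller than the spread of the arrays. Their array mean was 0.780 ± 0.104 in Δrad3 (SD, n = 3) and 0.823 ± 0.204 in WT replicates 1 and 3 (SD, n = 2), a difference of -0.04. With WT replicate 2 the WT mean was 0.809 ± 0.146 (SD, n = 3). Within slides 1 and 3 the difference was 0.07 and -0.07, so its sign was not the same. On slide 2, whose array labelled WT lacked rad3 DNA, the difference was -0.09. Over the 5 arrays of the rule it was 0.33 with normexp, where 127 of 155 members were higher in Δrad3, and 0.06 after scaling the arrays to one spread. Because both means had to pass 0.5, the rule itself bounds this difference. In all, 64 members were higher in Δrad3 and 91 lower.

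In limma, fitted over all 12070 bins on the 5 arrays of the rule, 0 of 155 members passed a Benjamini-Hochberg adjusted p under 0.05, as 0.0% of all bins did. At an unadjusted p under 0.05 there were 16 members (10.3%), against 6.47% of the eligible bins and 7.74% of all bins. The excess was larger after normexp, with 43 members (27.7%), against 8.45% of all bins, and was not kept in every fit. With a trended and robust prior variance there were 2 members (1.29%), against 8.14% of all bins. Without Δrad3 replicates 1, 2 and 3 in turn, the share of members was 14.8%, 3.87% and 4.52%, against 7.46%, 5.16% and 5.69% of all bins. With the slide as a block, 5 members were higher in Δrad3, where 2.89% of all bins were, and 1 lower, where 0.34% were. The higher ones were the bins of SPRRNA.54, spo20, rxt2 with clr4, SPBTRNAGLU.08 and the stretch between SPBP23A10.11C and frg1, with adjusted p between 0.000957 and 0.0374. The lower one was htb1 with sec5, with adjusted p = 0.0394. The contrast in that fit rests on the slides with an array of each group, and the fit has 1 residual degree of freedom before moderation. Since the same arrays chose the members, these counts describe them and nothing is read from them. With all 3 arrays labelled WT and no block, 0 members passed, where 4 bins (0.0331%) did, all higher, and at an unadjusted p under 0.05 there were 23 members (14.8%), against 7.45% of the eligible bins. With all 3 and the block, 3 were higher and 0 lower, where 0.87% and 0.00829% of all bins were. On the 5 arrays of the rule without the block, 7 members were higher in Δrad3 after normexp, where 0.613% of all bins were, and after scaling 3, where 1.05% were.

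The groups did not overlap in 33 members (21.3%), near the 23.4% of all eligible bins. The Δrad3 arrays were all above WT replicates 1 and 3 in 9 members (5.81%) and all below them in 24 (15.5%), where 11.4% and 12.0% of all eligible bins were, and since the rule used these arrays nothing is read from the counts. The most positive differences were 0.98 at SPRRNA.54 and 0.88 at spo20. The most negative were -0.70 at htb1 with sec5, -0.63 at fba1 and -0.63 at psu1, a beta-glucosidase gene. The psu1 bin varied widely, with 1.44, 0.40 and -0.32 on the Δrad3 arrays and 1.35, 0.77 and 0.92 on the arrays labelled WT.

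The sign of the difference varied with the kind of sequence. Each member was put in 1 kind, with centromere bins without tRNA genes first, then RNA genes, then islands of any overlap. All 8 centromere bins without a tRNA gene and 22 of 31 island bins were higher in Δrad3, with median differences of 0.19 and 0.15. Of the tRNA bins 17 of 31 were, with a median of 0.02, of the 5S rRNA bins 4 of 12, with -0.08, and of the 46 remaining bins with an intergenic midpoint 11, with -0.16. None of the 5 bins with a small nuclear or nucleolar RNA gene was higher in Δrad3, and 2 of 22 remaining bins with a coding midpoint were, with median differences of -0.45 and -0.29. Within slides 1, 2 and 3 the median difference was 0.42, 0.19 and 0.20 in island bins. In the remaining coding bins it was -0.16, -0.36 and -0.27. The signs were the same on each slide, but the array labelled WT on slide 2 lacked rad3 DNA. Slide 2 is therefore not a settled comparison of the strains. The sign was not the same on all slides in tRNA bins, at 0.07, -0.17 and -0.14, in 5S rRNA bins, at 0.05, -0.02 and -0.14, or in the remaining intergenic bins, at 0.002, -0.27 and -0.12. With normexp, however, the median difference was positive in every kind, at 0.54 in island bins, 0.11 in the remaining coding bins and 0.12 in bins with a small nuclear or nucleolar RNA gene. These are descriptions, and the differences between kinds were not tested.

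**Figure D5:**
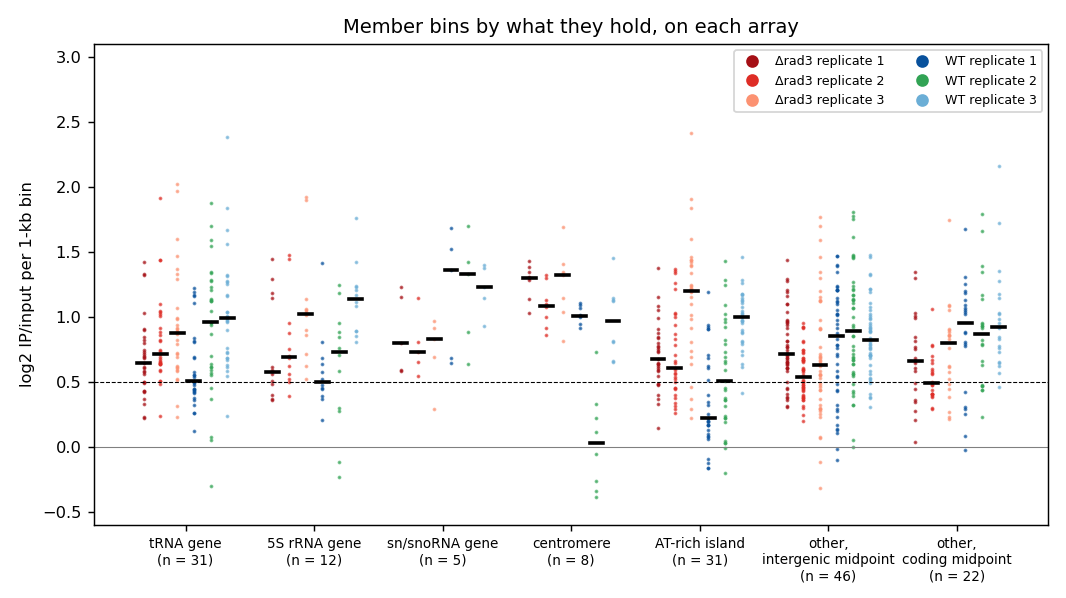
log2 IP/input of the 155 members on each array, by what the bin holds. Points are bins, black bars are medians, columns within a kind run from Δrad3 replicates 1 to 3 to the arrays labelled WT replicates 1 to 3, and the dashed line marks 0.5. Centromere bins without a tRNA gene have a median of 0.03 on the array labelled WT replicate 2, and island bins 0.22 on WT replicate 1.

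The change from slide to slide was partly shared by the strains. Across the 155 members, the difference between slides 3 and 1 in Δrad3 correlated with the same difference in WT at r = 0.80, and across all eligible bins at r = 0.46. Across members, the arrays of slides 1, 2 and 3 correlated at 0.58, 0.01 and 0.55. Within Δrad3, replicates 1 and 2 correlated at 0.46, 2 and 3 at 0.62, and 1 and 3 at 0.05. Within the arrays labelled WT, replicates 1 and 2 correlated at 0.37, 2 and 3 at 0.20, and 1 and 3 at -0.07. The other pairs, of different slide and strain, ranged from -0.41 for Δrad3 replicate 3 with WT replicate 1 to 0.42 for Δrad3 replicate 2 with WT replicate 3. The points share probes and arrays, and the choice of members on the means narrows their range, so these correlations describe the arrays and carry no p. Slide 3 also had the lowest input signal over background in both groups, and its part in the levels was not tested.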

How the data were processed

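Each file was Agilent Feature Extraction 10.7.3.1 output of 1 array, per the file headers and the submitters' processing notes. Its intensity columns were deposited background-subtracted and linearly dye-normalized by the authors' run of that software, per the file headers, and its deposited log10 ratio is red over green. IP was in the 555 (green) and input in the 647 (red) channel on all arrays, per the labels, although the series text speaks of reciprocal labelling, so dye bias was not removed. Build names beyond that of the file headers are not given in the sources used here.

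Here log2 IP/input was taken of the processed intensity, centred on each array's median, without control spots, and averaged per 1-kb bin, 2 or more probes being required. Coordinates are those of the files (Spombe:NCBI:Feb2002). Names came from ASM294v3, after probe length was set against its A+T content at shifts of up to 8000 bp, and 104 of 104 windows of 100000 bp matched within 20 bp without a shift. Differences were fitted with limma 3.58.1 (R 4.3.3) on the 5 arrays of the rule over all 12070 bins, tested on simulated data, with adjusted p under 0.05 as threshold. Tables and plots used Python 3.11.15, pandas 2.3.3, scipy 1.17.1 and matplotlib 3.10.9.

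Same-numbered arrays shared a slide and scan session, per the file headers. The numbers were therefore taken as pairs in the values within slides and in the fits with a block, whereas the main fit had no slide term. Deviations of paired arrays from the group means correlated at 0.476, 0.104 and 0.263 for replicates 1, 2 and 3. For WT replicate 2 with Δrad3 replicate 3, of another slide, it was 0.120. Members, lists and tests were chosen with earlier results of these data known. Named bins were the 20 regions with the highest lower strain mean, the 5 bins on either side of the threshold, the 5 largest and smallest differences, the 5 highest and lowest on WT replicate 2, the longest region and bins of the coding gene lists. Alternatives were other background correction, scaling, thresholds, probe filters, arrays left out, slide blocks and island definitions. The other background correction, normexp, took the raw median signals and not the deposited dye-normalized ones, with an offset of 50.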

Additional observations from a re-analysis of the deposited data

How the results depend on the processing

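The number of members depended on single arrays and on the processing. Leaving out each array in turn gave 102 to 266 members, with 102 without WT replicate 3 and 266 without WT replicate 1. Normexp background correction of the raw median signals, with an offset of 50, left 41. The correction, the offset and the start from raw signals were not tested apart. A threshold of 0.75 left 36 and one of 1 left 13. On the array labelled WT replicate 2, the share at or above 0.5 was 45.0% after scaling the arrays to one spread (103 of the 229 members found then). The share of all eligible bins after scaling is not given here, so an excess cannot be judged. Of the 155 members, 51.0% and 32.9% were at or above 0.75 and 1 on that array without scaling, where 5.87% and 1.68% of all eligible bins were. The share with an island midpoint was 31.6% and 5.16% with islands of at least 70% and 74% A+T. The shares of all eligible bins at these cuts are not given here, so an excess cannot be judged. By any overlap with islands of at least 72% A+T the share was 36.8%, where 7.28% of all eligible bins were touched. With midpoints of the same islands it was 4.88% after normexp (2 of 41 members) and 10.5% after scaling (24 of 229), where 3.06% of all eligible bins held a midpoint. The share with an RNA gene was 22.0% after normexp (9 of 41 members), where 2.14% of all eligible bins held one. Members higher in Δrad3 numbered 7 after normexp, where 0.613% of all bins were, and 3 after scaling, where 1.05% were. They numbered 5 with the replicate block (2.89% of all bins) and 3 with all 3 arrays labelled WT and the block (0.87%). With the replicate block 1 was lower, where 0.34% of all bins were. The mean difference was 0.33 after normexp, the opposite sign to the -0.04 above. Leaving out each array in turn gave differences from -0.19 to 0.10. Without Δrad3 replicates 1, 2 and 3 in turn, 0 members were called, where 24, 0 and 0 of all 12070 bins were. The causes were not tested.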
